A study of Mus musculus with 20 samples.

Results

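Globin transcripts were examined in RNA-seq libraries of embryonic mouse hearts in which the histone methyltransferase gene Kmt2d was deleted by 3 Cre lines. The globin genes were taken as every gene of the deposited table whose symbol begins with Hba- or Hbb-, which gave 7 of 33495 genes: the embryonic genes Hba-x, Hbb-y and Hbb-bh1, and the adult-type genes Hba-a1, Hba-a2, Hbb-b1 and Hbb-b2. Hemoglobin is a tetramer of alpha-like and beta-like chains, and the genes for each kind of chain lie together in a cluster. Primitive red cells, which arise in the yolk sac and reach the heart with the circulation, use mainly the embryonic chains, and within this lineage Hbb-bh1 gives way to Hbb-y as the cells mature. Definitive red cells, made later from other progenitors and then in the fetal liver, use mainly the adult chains.

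All libraries came from embryos of the strain label C57BL/6 that carried a Cre transgene or allele and 1 copy of the mTmG reporter. Controls were Cre;Kmt2d fl/+;mTmG/+, so that they too carried Cre and 1 floxed allele, and mutants were Cre;Kmt2d fl/fl;mTmG/+. Mesp1Cre, active in mesoderm precursors, was used for whole hearts at E9.0 (4 control and 4 mutant libraries). Tnnt2::Cre, active in cardiomyocytes, was used for whole hearts at E11.5 (3 and 3), and Mef2cAHF::Cre, active in precursors of the anterior heart field, for right ventricle and outflow tract at E11.5 (3 and 3). No agent was given. The growth protocol in the labels names E11.5 for all hearts, whereas the sample labels and the study's methods give E9.0 for Mesp1Cre, and the latter was used here. Red cells in a heart arise largely outside it, and in which of them each Cre had deleted Kmt2d was not measured.

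Each library held between 21727258 and 45341870 counts, of which the 7 globin genes took 0.205 to 14.6%. Before any globin comparison the labels were checked against Kmt2d, listed in the table under its older symbol Mll2. Its log2 fold change in mutants was -0.21 for Mesp1Cre (FDR 0.0764) and -0.35 for Tnnt2::Cre (FDR 0.327), neither passing the threshold of 0.05, and counts over the whole gene need not show an excision within it. For Mef2cAHF::Cre it went against the labels, at 0.32 higher in the libraries labelled mutant (SE 0.06, FDR 0.0359), a call that was lost in 5 of 6 cases when 1 library was left out. The column names of the table also contradict the sample titles for this line, and the genotype labels follow the titles. Mef2cAHF::Cre groups are therefore called labelled mutant and labelled control throughout, and each direction is given for both readings: under the column names every sign below is mirrored. All 10 listed cardiomyocyte genes and all 6 listed endothelial genes reached a mean FPKM of at least 1 in every group, while the sum of 5 yolk sac endoderm and liver genes (Afp, Alb, Apoa1, Ttr and Rbp4) was only 0.318 to 8.75 FPKM per library. FPKM, the authors' length-normalised value, corrects a count for gene length and library size, and is the scale on which levels of different genes are set side by side here.

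The alpha-like genes lie on chromosome 11 and the beta-like genes on chromosome 7 (mm9, the build of the deposited table). Hba-x (ENSMUSG00000055609, zeta chain) spans chr11:32176400-32178116, Hba-a1 (ENSMUSG00000069919) chr11:32183511-32184465 and Hba-a2 (ENSMUSG00000069917) chr11:32196489-32197298, all on the plus strand. Hbb-y (ENSMUSG00000052187, epsilon y chain) spans chr7:111000259-111001754, Hbb-bh1 (ENSMUSG00000052217) chr7:110990150-110991678, Hbb-b1 (ENSMUSG00000052305) chr7:110975048-110976610 and Hbb-b2 (ENSMUSG00000073940) chr7:110961038-110962510, all on the minus strand. All 7 are protein-coding genes of 3 exons. The common-name column of the table gives the last 2 symbols the other way round from its alternate-name and description columns. The names here follow the descriptions, by which ENSMUSG00000052305 is the adult major chain (Hbb-b1) and ENSMUSG00000073940 the adult minor chain (Hbb-b2). Of all 100-base windows in the transcripts of Hba-a1, 62.4% recur exactly in Hba-a2, and 80.4% the other way. The corresponding shares were 40.0% for Hbb-b1 in Hbb-b2 and 54.8% the other way, so the split of reads within each of these pairs is uncertain. No such window was shared between any other pair of the 7 genes, and in particular none between an embryonic and an adult-type gene.

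The 250 bases before the start site are shown for the embryonic and the adult-type genes, because the comparisons below turn on how these 2 sets, and the 2 clusters, changed relative to each other. They were read from RefSeq (GRCm38.p6) and run 5′ to 3′ on the gene's strand, with capitals marking the motifs CACCC (the core bound by Klf1-type factors), CCAAT, GATA and TATAA, each searched on both strands, where CCAAT read from the other strand is ATTGG, GATA is TATC and TATAA is TTATA. The windows of Hba-x (chr11:32276350-32276599), Hba-a1 (chr11:32283422-32283671) and Hbb-y (chr7:103853208-103853457) were found by symbol. Those of Hbb-b1 (chr7:103827929-103828178) and Hbb-b2 (chr7:103813924-103814173) are listed in RefSeq as Hbb-bs and Hbb-bt, and were assigned because each occurs exactly once in mm9, at that gene. The promoter sequence of Hba-a1 occurs in 2 places on these chromosomes, at Hba-a1 and at Hba-a2. The RefSeq start site lies inside the gene span given above by 200 bases for Hba-x, 161 for Hba-a1, 33 for Hbb-y, 168 for Hbb-b1 and 73 for Hbb-b2. Part of each window thus lies within that span. Hbb-bh1 is named only.
Hba-x: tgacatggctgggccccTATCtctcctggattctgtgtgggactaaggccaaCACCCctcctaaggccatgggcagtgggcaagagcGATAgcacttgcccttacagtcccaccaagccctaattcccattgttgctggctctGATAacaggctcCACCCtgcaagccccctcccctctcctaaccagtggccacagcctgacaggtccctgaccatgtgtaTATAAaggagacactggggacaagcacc
Hba-a1: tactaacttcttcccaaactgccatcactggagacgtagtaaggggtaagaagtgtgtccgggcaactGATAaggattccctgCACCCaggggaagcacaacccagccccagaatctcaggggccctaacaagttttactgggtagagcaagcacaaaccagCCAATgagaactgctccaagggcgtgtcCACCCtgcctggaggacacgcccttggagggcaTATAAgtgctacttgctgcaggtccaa
Hbb-y: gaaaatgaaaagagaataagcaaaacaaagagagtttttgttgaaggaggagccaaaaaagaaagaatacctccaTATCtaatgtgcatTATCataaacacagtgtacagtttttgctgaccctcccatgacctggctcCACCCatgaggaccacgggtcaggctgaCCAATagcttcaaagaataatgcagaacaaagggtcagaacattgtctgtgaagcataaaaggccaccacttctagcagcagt
Hbb-b1 (Hbb-bs): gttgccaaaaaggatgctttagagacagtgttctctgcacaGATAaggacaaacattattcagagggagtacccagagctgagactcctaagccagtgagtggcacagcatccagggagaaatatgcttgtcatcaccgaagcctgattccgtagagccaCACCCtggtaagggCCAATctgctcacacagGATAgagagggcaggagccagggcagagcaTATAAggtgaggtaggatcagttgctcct
Hbb-b2 (Hbb-bt): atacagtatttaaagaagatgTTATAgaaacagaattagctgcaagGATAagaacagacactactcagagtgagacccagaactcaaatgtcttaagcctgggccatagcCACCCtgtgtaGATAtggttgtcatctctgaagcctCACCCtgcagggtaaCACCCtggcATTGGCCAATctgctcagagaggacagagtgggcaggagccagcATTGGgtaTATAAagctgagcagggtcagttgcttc
CACCC was found in all 5 windows, with 3 matches for Hbb-b2, 2 each for Hba-x and Hba-a1, and 1 each for Hbb-y and Hbb-b1. GATA was also found in all 5, with 3 matches for Hba-x, 1 for Hba-a1 and 2 for each of the beta-like genes. CCAAT was found in 4, all but Hba-x, with 3 matches for Hbb-b2, of which 2 lie next to each other on opposite strands. TATAA was found in 4, all but Hbb-y. Over 32851 RefSeq promoters of the same length the shares with a match were 52.0% for CACCC, 33.8% for CCAAT, 53.6% for GATA and 22.8% for TATAA. These matches describe the letters only.

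In E9.0 control hearts the 3 embryonic genes stood far above the 4 adult-type genes. Hba-x averaged 5386 ± 2505 FPKM (SD, n = 4), Hbb-y 5311 ± 2011 and Hbb-bh1 4207 ± 1999. Hba-a1 and Hba-a2 followed at 99.4 ± 28.4 and 90.3 ± 40.3 FPKM, and then Hbb-b1 at 17.4 ± 5.92 and Hbb-b2 at 8.95 ± 3.53. Every library kept Hbb-y above Hbb-bh1 and Hbb-bh1 above Hba-a1, but Hba-x and Hbb-y overlapped in range and were in that order in only 1 of 4 libraries. Hba-a1 and Hba-a2 also overlapped, as did Hbb-b1 and Hbb-b2, although Hbb-b1 was the higher of the 2 in all 4 libraries.

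In E11.5 Tnnt2::Cre control hearts the order had changed within the beta cluster. Hbb-y now led at 83218 ± 21793 FPKM (SD, n = 3), followed by Hba-x at 49887 ± 12225 and Hbb-bh1 at 20122 ± 4156, with no overlap between these neighbours. Among the adult-type genes Hbb-b2, lowest of all at E9.0, was now the highest at 1895 ± 551 FPKM, overlapping with Hba-a1 at 1427 ± 422, which in turn overlapped with Hba-a2 at 1317 ± 394. Hbb-b1 was the lowest of the 7 at 338 ± 178 FPKM. In the labelled controls of Mef2cAHF::Cre the order was Hba-x (12376 ± 7211 FPKM, n = 3), Hbb-y (9014 ± 4973), Hbb-bh1 (4452 ± 3056), Hbb-b2 (198 ± 89.1), Hba-a2 (169.7 ± 90.7), Hba-a1 (161 ± 66.3) and Hbb-b1 (29.97 ± 19.2). Hbb-b1 was thus lowest in all 4 groups of E11.5 hearts, and the embryonic genes held the first 3 places in all 6 groups.

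**Figure D1:**
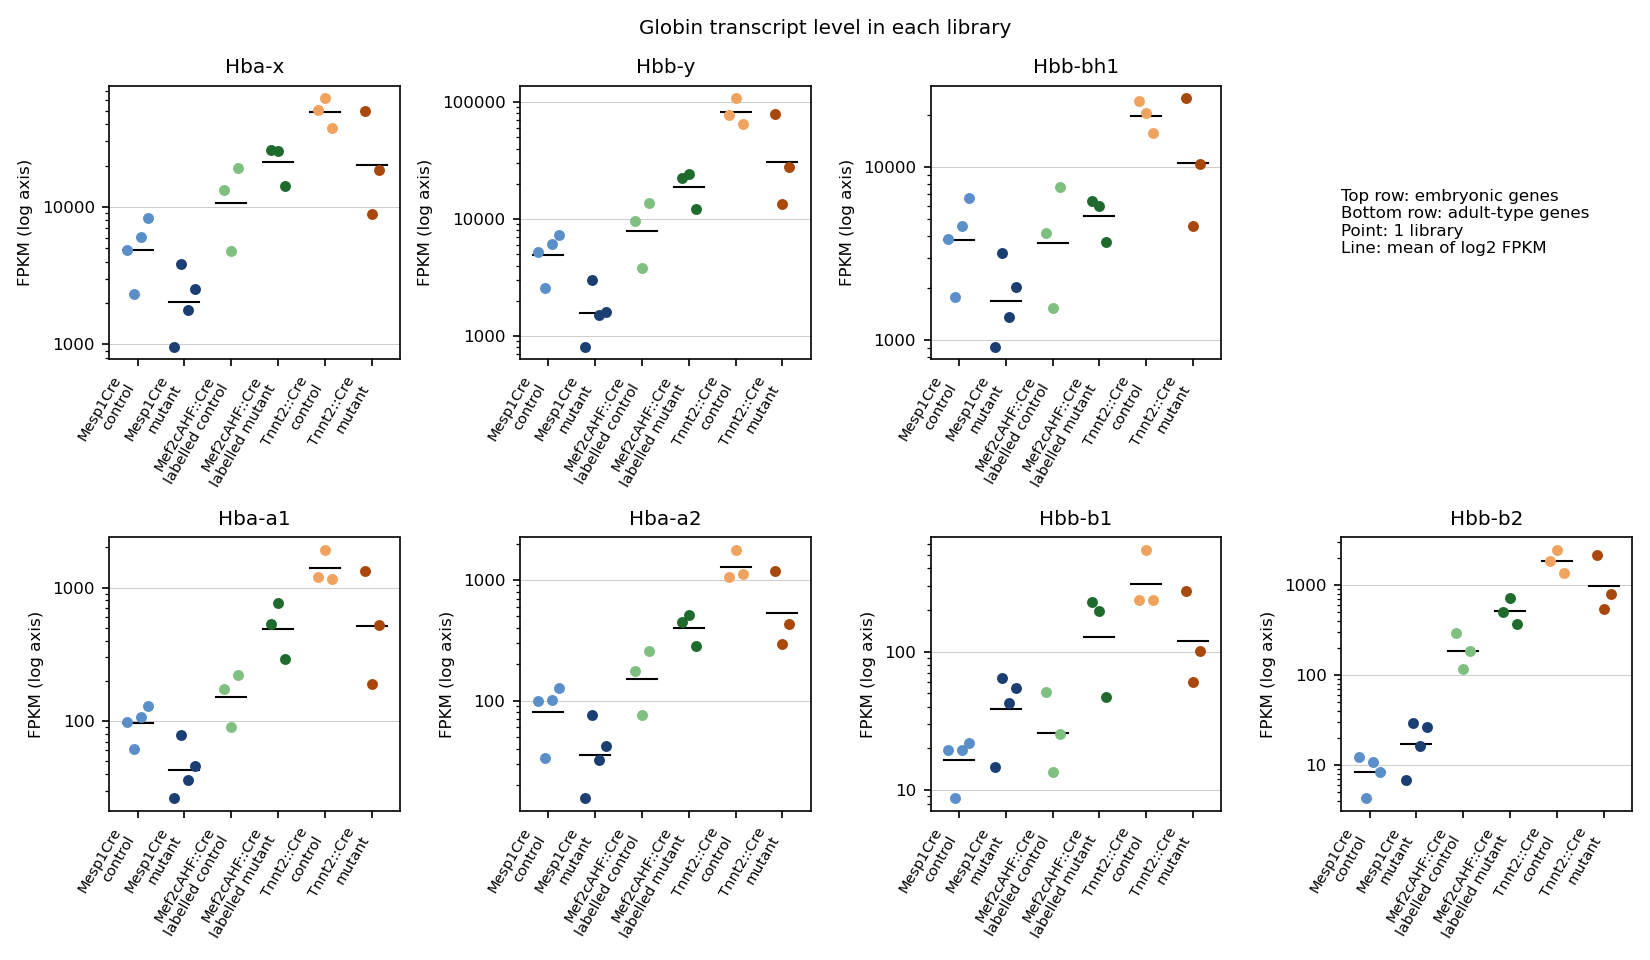
Level of each globin gene (FPKM, log axis) in every library, 1 panel per gene and 1 column per group, with points for libraries and lines for the mean of log2 FPKM. All 3 E11.5 Tnnt2::Cre controls lie above all 4 E9.0 Mesp1Cre controls in every panel.

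To follow the stage, the 3 Tnnt2::Cre controls were set against the 4 Mesp1Cre controls, both of whole hearts and both also the controls of the genotype comparisons below. Stage, Cre line and sequencing group change together in this comparison and cannot be told apart, nor can more red cells be told apart from more globin RNA per cell in bulk tissue. All 7 globin genes were higher at E11.5 by edgeR's quasi-likelihood test, against a background of 19.6% of 16697 genes higher and 38.3% called in either direction. Their median log2 difference was 3.91, and that of all genes -0.0053.

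The difference was largest for the adult minor chain Hbb-b2. Its E9.0 controls had 12.4, 4.27, 10.7 and 8.38 FPKM, and its E11.5 controls 1851, 2466 and 1367 FPKM, with a log2 difference of 7.76 (SE 0.33, FDR 1.04e-07). Hbb-b1 had 19.6, 8.73, 19.4 and 22.0 FPKM at E9.0 and 236, 543 and 234 FPKM at E11.5, with a log2 difference of 4.32 (SE 0.34, FDR 6.28e-06). Neither adult beta chain overlapped between the stages, and the ratio of their mean FPKM was 212-fold for Hbb-b2 and 19.4-fold for Hbb-b1. The adult alpha genes rose by log2 differences of 3.89 (Hba-a1, SE 0.24, FDR 1.18e-06) and 3.91 (Hba-a2, SE 0.36, FDR 1.39e-05). Among the embryonic genes Hbb-y rose most, by 4.01 (SE 0.30, FDR 4.43e-06), then Hba-x by 3.25 (SE 0.34, FDR 3.00e-05), and Hbb-bh1 rose least of all 7, by 2.30 (SE 0.32, FDR 0.000228). The FPKM of the 2 control groups did not overlap for any of the 7 genes, as was the case for 49.3% of 13481 expressed genes (FPKM of at least 1 in 3 libraries). All 7 stayed higher under each alternative and without any 1 library.

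The balance of embryonic to adult-type transcripts was taken in each library as the summed FPKM of Hba-x, Hbb-y and Hbb-bh1 over that of the 4 adult-type genes, a ratio that does not depend on how much red cell RNA a library holds. In E9.0 controls the ratio was 60.5, 61.8, 70.7 and 77.1, and in E11.5 Tnnt2::Cre controls 34.9, 28.3 and 30.5. The groups did not overlap, and the ratio was 2.16-fold lower at E11.5 (log2 difference -1.11, SE 0.12). The two-sided exact permutation p was taken as the smaller one-sided p, doubled. Taken so, it cannot go below 0.0571 with 3 against 4 libraries. That was its value here, and it was 0.130 after Benjamini-Hochberg adjustment over 25 tests of 5 ratios in 5 comparisons.

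The shift was larger in the beta cluster than in the alpha cluster. The beta-like ratio (Hbb-y and Hbb-bh1 over Hbb-b1 and Hbb-b2) was 284, 335, 357 and 457 in E9.0 controls and 48.6, 42.5 and 50.4 in E11.5 controls, 7.50-fold lower. The alpha-like ratio (Hba-x over Hba-a1 and Hba-a2) was 24.4, 24.4, 29.2 and 32.3 at E9.0 and 22.3, 16.8 and 16.4 at E11.5, 1.496-fold lower. Neither overlapped between stages, and for both the exact permutation p was 0.0571, the smallest possible for the doubled p. Whether the 2 clusters differed from each other was not tested.

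Within the embryonic beta pair, the ratio of Hbb-y to Hbb-bh1 was 1.36, 1.43, 1.35 and 1.10 in E9.0 controls and 3.22, 5.21 and 4.13 in E11.5 controls, 3.15-fold higher with no overlap (exact permutation p = 0.0571). Over all 20 libraries, 12 at E11.5 had a median of 3.19 (range 1.79 to 5.21) and 8 at E9.0 a median of 1.11 (0.788 to 1.43). The 2 sets did not overlap. The two-sided exact permutation p was 1.59e-05, the smallest that 12 against 8 libraries can give for the doubled p (adjusted p = 0.000397). The embryonic to adult ratio over the same libraries had a median of 30.9 (24.7 to 58.7) at E11.5 and 51.5 (36.4 to 77.1) at E9.0, overlapping, with an exact permutation p of 0.00254 (adjusted p = 0.0212). These comparisons of all libraries mix genotypes and tissues, count both Mef2cAHF::Cre readings alike, share controls with those of the Cre lines, and treat the libraries of 3 Cre lines as independent. Without the 4 Mesp1Cre controls the embryonic to adult difference shrank from a log2 value of -0.66 to -0.26 (exact permutation p = 0.171).

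**Figure D2:**
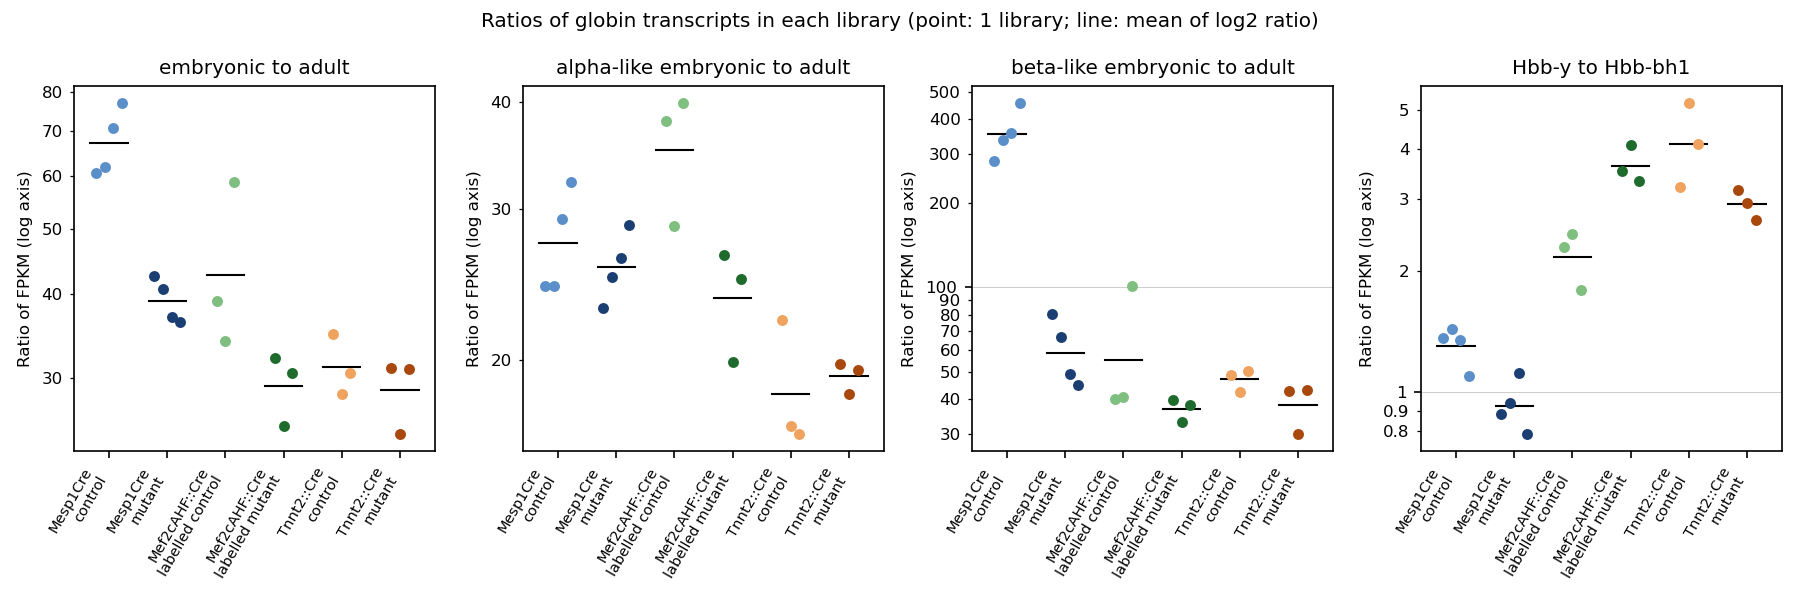
Ratios of summed FPKM in every library (log axes), with points for libraries and lines for the mean of log2 ratios in each group. The 4 Mesp1Cre mutants lie below the 4 controls in the embryonic to adult and beta-like panels but overlap with them in the alpha-like panel, and all 12 E11.5 libraries lie above all 8 E9.0 libraries for Hbb-y to Hbb-bh1.

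In Mesp1Cre mutants at E9.0 the embryonic globins fell, and no adult beta chain passed in the main fit. The 3 embryonic genes and Hba-a1 fell, that is 4 of the 7 against a background of 5.29% of 15883 genes lower and 6.17% higher. Hba-a2, Hbb-b1 and Hbb-b2 did not pass the threshold, and the signs of Hbb-b1 and Hbb-b2 were positive. The 7 genes had a median log2 fold change of -1.26, and all genes -0.0018. All 7 had an unadjusted p under 0.05.

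Hbb-y, the embryonic epsilon chain, had 5236, 2565, 6177 and 7268 FPKM in controls and 810.3, 3017, 1521 and 1592 FPKM in mutants. The lowest control lay below the highest mutant, so the ranges overlapped, and the log2 fold change was -1.76 (SE 0.35, FDR 0.00766). It remained past the threshold without any 1 of the 8 libraries. Hba-x, the zeta chain, had 4834, 2311, 6085 and 8315 FPKM in controls and 962, 3879, 1791 and 2530.3 FPKM in mutants (log2 fold change -1.38, SE 0.39, FDR 0.0382). Hbb-bh1, the beta-like chain that precedes Hbb-y, had 3837, 1787, 4578 and 6627 FPKM in controls and 918, 3207, 1364 and 2021 FPKM in mutants (log2 fold change -1.31, SE 0.38, FDR 0.0419). For both genes the lowest control lay below the 2 highest mutants, and leaving out 1 library lost the call in 6 of 8 cases.

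The adult alpha genes moved with the embryonic genes in size. Hba-a1 had 98.8, 61.7, 107 and 130.0 FPKM in controls and 26.3, 78.6, 36.0 and 45.8 FPKM in mutants, with a log2 fold change of -1.24 that passed (SE 0.29, FDR 0.0173). Hba-a2 had 99.3, 33.1, 101 and 128 FPKM against 15.5, 76.3, 32.02 and 42.3 FPKM, with a log2 fold change of -1.26 that did not pass (SE 0.43, FDR 0.0765). Because of the sequence shared by this pair, the split between their calls is uncertain.

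The adult beta genes did not share the lower level. Hbb-b1, the adult major chain, had 19.6, 8.73, 19.4 and 22.0 FPKM in controls and 14.8, 64.5, 42.4 and 54.6 FPKM in mutants. The last 3 mutants lay above every control, whereas the first, which also had the lowest level of each embryonic gene, lay within the controls' range, and the log2 fold change of 1.19 did not pass (SE 0.37, FDR 0.0554). Without that mutant it was 1.49 (FDR 0.00481). This was the only 1 of 8 fits without 1 library in which Hbb-b1 passed, found by leaving out each in turn. Over the 8 its log2 fold change was 0.94 to 1.49, with an FDR of up to 0.129. Of 9 alternatives with all libraries in, Hbb-b1 was called higher in 3. These were genes with at least 1 count (1712 of 24737 genes called), at least 10 counts in every library (1928 of 13554), and the red cell covariate described below. Hbb-b2 had 12.4, 4.27, 10.7 and 8.38 FPKM in controls and 6.79, 29.0, 16.2 and 26.3 FPKM in mutants, again with the first mutant within the controls' range and the other 3 above it, and a log2 fold change of 0.98 (SE 0.40, FDR 0.136). None of the 7 genes had FPKM ranges free of overlap between the groups, against 21.3% of 13786 expressed genes.

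As ratios within each library, the groups came apart. The beta-like embryonic to adult ratio was 284, 335, 357 and 457 in controls and 80.1, 66.6, 49.3 and 44.7 in mutants. All 4 mutants lay below all 4 controls, and the ratio was 6.03-fold lower (log2 difference -2.59, SE 0.24). The alpha-like ratio was 24.4, 24.4, 29.2 and 32.3 in controls and 23.0, 25.03, 26.3 and 28.7 in mutants, which overlapped, with a log2 difference of -0.09 (SE 0.12, exact permutation p = 0.514).

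The overall embryonic to adult ratio was 60.5, 61.8, 70.7 and 77.1 in controls and 42.5, 40.7, 36.9 and 36.4 in mutants, 1.72-fold lower without overlap (log2 difference -0.78, SE 0.10). For the overall and the beta-like ratio the two-sided exact permutation p was 0.0286, the smallest that 4 against 4 libraries allow, and 0.130 when adjusted over the 25 tests. Without any 1 library the log2 difference of the overall ratio stayed between -0.83 and -0.72. The exact permutation p was then 0.0571, the smallest possible for the doubled p. Hbb-b1 made up 0.158 to 0.215% of beta-like FPKM in controls and 0.845 to 1.48% in mutants. The ratio of Hbb-y to Hbb-bh1 was 1.36, 1.43, 1.35 and 1.10 in controls and 0.883, 0.941, 1.12 and 0.788 in mutants, which overlapped, with a 1.41-fold lower value in mutants (exact permutation p = 0.0571, adjusted p = 0.130).

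Other blood cell genes moved in the same libraries. The mean log2 CPM of 28 heme and red cell genes was 4.24 to 5.37 in controls and 3.44 to 4.56 in mutants. The summed FPKM of 5 megakaryocyte genes was 4.99 to 18.1 in controls and 55.1 to 284 in mutants. Of the 4 tested, Pf4 and Ppbp were called higher, beside 6.17% of all genes. That of 6 macrophage genes was 4.92 to 11.53 in controls and 1.36 to 2.14 in mutants. Of the 3 macrophage genes tested, Lyz2 was called lower (log2 fold change -3.05), beside 5.29% of all genes. The other 2, Csf1r (0.24) and Mrc1 (0.11), had positive values that did not pass. With the mean of the red cell genes as a covariate no embryonic gene passed (log2 fold changes of -0.55 for Hbb-y, 0.06 for Hba-x and 0.11 for Hbb-bh1), and Hbb-b1 was the only globin called, at 2.33 (FDR 0.00541). That fit called 184 of 15883 genes, 132 of them higher, where the fit without the covariate called 1821. The covariate is the red cell mean given above, whose range sat lower in mutants and overlapped with that of controls. The part of these other cells in the globin changes was not tested.

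**Figure D3:**
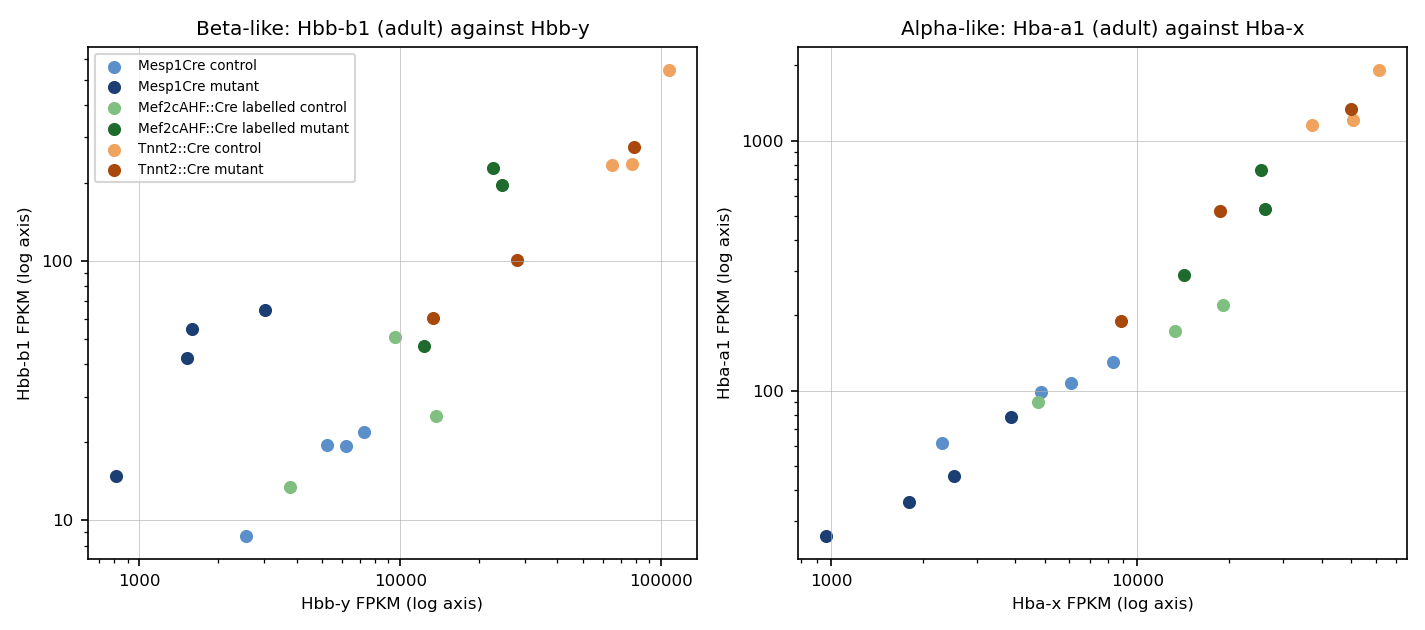
Adult against embryonic globin level in each of 20 libraries (FPKM, log axes), Hbb-b1 against Hbb-y on the left and Hba-a1 against Hba-x on the right. On the left the 4 Mesp1Cre mutants lie apart from the other libraries, with 14.8 to 64.5 FPKM of Hbb-b1 at 810.3 to 3017 FPKM of Hbb-y, and on the right they lie along the band formed by the others.

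In Tnnt2::Cre mutants at E11.5 no globin gene passed the test, and 1 of 3 mutant libraries resembled the controls in its globin levels. None of the 7 was called by edgeR, against 0.293% of 17045 genes, none had an unadjusted p under 0.05, and none was called by DESeq2 or limma-trend. All 7 log2 fold changes were negative, with a median of -1.10 beside 0.0037 for all genes. They ran from -1.26 for Hbb-b1 (SE 0.57, FDR 0.430) to -0.64 for Hbb-bh1 (SE 0.54, FDR 0.694), with Hbb-y at -1.10 (SE 0.60, FDR 0.512) and Hba-x at -0.99 (SE 0.58, FDR 0.544).

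Hbb-y had 77344, 107346 and 64964 FPKM in controls and 78901, 13386 and 27947 FPKM in mutants. Hba-x had 50597, 61742 and 37323 FPKM in controls and 49940.0, 8855 and 18601 FPKM in mutants. For both genes the first mutant lay within the controls' range and the other 2 below every control. The same held for the adult-type genes: Hbb-b1 had 236, 543 and 234 FPKM in controls and 275, 60.5 and 101 FPKM in mutants, and Hbb-b2 had 1851, 2466 and 1367 FPKM against 2158, 539 and 791 FPKM. Globin genes took 9.05 to 14.6% of all counts in controls, and 11.8, 2.07 and 4.37% in the 3 mutants. The mean log2 CPM of the red cell genes moved alike, at 6.79 to 7.59 in controls and 7.20, 4.95 and 5.80 in mutants. The first mutant also had the highest FPKM of the platelet gene Pf4, at 678 beside 97.6 to 234 in controls and 158 and 159 in the other mutants. Its labels match those of the others. Its Kmt2d level was 6.36 FPKM, beside 7.94 and 7.63 in the other mutants and 9.75, 9.01 and 6.93 in controls.

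Without the first mutant all 7 globin genes were called lower, among them Hba-a2 with a log2 fold change of -2.03 (FDR 0.00545) and Hbb-b1 with -2.23 (FDR 0.0126), and 896 of 17487 genes were called in place of 50. That set leaves 2 mutants and was chosen by leaving out each library in turn. All 7 genes overlapped between groups with all libraries in, against 20.2% of 13277 expressed genes without overlap.

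The balance of embryonic to adult transcripts differed little between Tnnt2::Cre groups. The embryonic to adult ratio was 34.9, 28.3 and 30.5 in controls and 31.0, 24.7 and 30.9 in mutants, which overlapped. The log2 difference was -0.12 (SE 0.14, exact permutation p = 0.6, where 0.1 is the smallest possible), and as a difference of mean log2 FPKM over the genes it turned to 0.062. The beta-like ratio was 48.6, 42.5 and 50.4 in controls and 42.7, 29.95 and 43.0 in mutants (log2 difference -0.31, exact permutation p = 0.3), and the alpha-like ratio 22.3, 16.8 and 16.4 against 19.8, 18.2 and 19.5 (log2 difference 0.07, exact permutation p = 0.8). The ratio of Hbb-y to Hbb-bh1 was 3.22, 5.21 and 4.13 in controls and 3.17, 2.94 and 2.67 in mutants, 1.41-fold lower without overlap (exact permutation p = 0.1, the smallest possible, adjusted p = 0.147).

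In right ventricle and outflow tract of Mef2cAHF::Cre embryos 2 adult-type globins were higher in the libraries labelled mutant. Hba-a1 and Hbb-b2 passed the test, against a background of 1.81% of 16920 genes higher and 2.85% called in either direction. The median log2 fold change of the 7 was 1.40, beside -0.0067 for all genes, and 5 of the 7 had an unadjusted p under 0.05. By the labels these genes were higher in mutants, and by the column names lower in mutants by the same amounts.

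Hba-a1 had 173, 89.9 and 221 FPKM in labelled controls and 535, 763 and 291 FPKM in labelled mutants, with a log2 fold change of 1.83 (SE 0.40, FDR 0.0485). Hbb-b2 had 294, 117 and 184 FPKM against 505, 722 and 372 FPKM, with a log2 fold change of 1.55 (SE 0.34, FDR 0.0491). The groups overlapped for neither gene, nor for Hba-a2 (176, 76.0 and 257 against 449.9, 511 and 282 FPKM), whose log2 fold change of 1.40 did not pass (SE 0.41, FDR 0.110). These 3 were the genes of the 7 without overlap, against 33.6% of 13747 expressed genes.

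Hbb-b1 had 51.1, 13.5 and 25.4 FPKM in labelled controls and 227, 197 and 47.1 FPKM in labelled mutants, and its log2 fold change of 2.52 did not pass (SE 0.61, FDR 0.0654). The third labelled mutant lay within the labelled controls' range. The embryonic genes had smaller values that did not pass, with log2 fold changes of 1.24 for Hbb-y (SE 0.44, FDR 0.175), 0.93 for Hba-x (SE 0.45, FDR 0.322) and 0.37 for Hbb-bh1 (SE 0.49, FDR 0.758). Hbb-y had 9573, 3785 and 13684 FPKM in labelled controls and 22576, 24449.8 and 12280.5 FPKM in labelled mutants, and overlapped through the third library of each group. Without 1 library the call of Hba-a1 was lost in 3 of 6 cases and that of Hbb-b2 in 4 of 6. Both of these calls were lost without the first or the second labelled mutant, and both limma-trend fits made none. Labelled mutants had 42.6 to 92.4 summed FPKM of megakaryocyte genes and labelled controls 205 to 563. Of the 5, Pf4, Ppbp and Itga2b were called lower in labelled mutants, beside 176 of 16920 genes called lower. The red cell mean was 5.68 to 6.41 log2 CPM in labelled mutants and 4.43 to 5.83 in labelled controls. The part of these other cells, and of where the tissue was cut, was not tested.

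The ratio of embryonic to adult transcripts was 39.0, 34.0 and 58.7 in labelled controls and 32.1, 25.5 and 30.5 in labelled mutants. It was 1.46-fold lower in labelled mutants without overlap, with an exact permutation p of 0.1, the smallest that 3 against 3 libraries allow (adjusted p = 0.147). By the column names it was 1.46-fold higher in mutants. The beta-like ratio was 39.9, 40.8 and 102 in labelled controls and 39.5, 33.1 and 38.1 in labelled mutants, and without the third labelled control the gap between the groups is narrow. The alpha-like ratio was 38.1, 28.6 and 39.9 against 26.5, 19.9 and 24.9. Both were 1.49-fold lower in labelled mutants without overlap (exact permutation p = 0.1 for each). The ratio of Hbb-y to Hbb-bh1 was 2.29, 2.46 and 1.79 in labelled controls and 3.53, 4.09 and 3.33 in labelled mutants, 1.68-fold higher in labelled mutants without overlap (exact permutation p = 0.1), and lower in mutants by the column names.

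**Figure D4:**
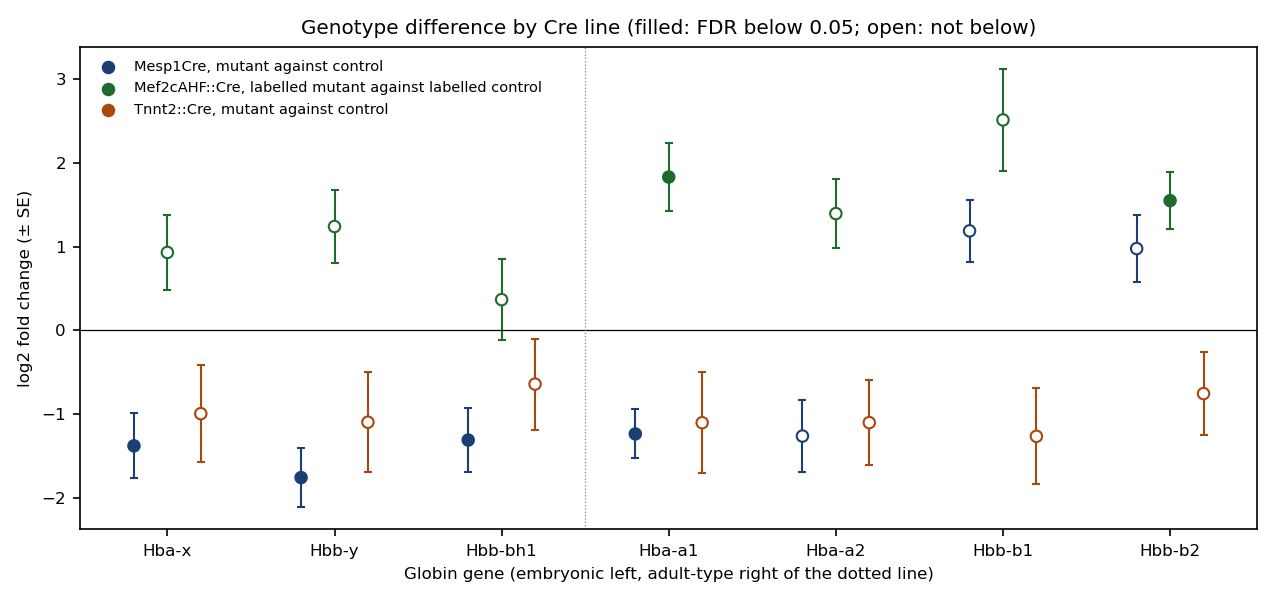
Log2 fold change of each globin gene in mutants of the 3 Cre lines, with bars for the SE and filled points for FDR below 0.05 by edgeR's quasi-likelihood test. Mesp1Cre has both signs, from -1.76 for Hbb-y to 1.19 for Hbb-b1, Tnnt2::Cre has negative values for all 7 genes, and the Mef2cAHF::Cre values follow the sample labels and change sign under the column names.

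Whether the genotype effect differed between Tnnt2::Cre and Mesp1Cre was tested as an interaction. None of the 7 globin genes passed, against 1.06% of 17658 genes, and none was called by DESeq2 or limma-trend, while 2 had an unadjusted p under 0.05. These 2 were the adult beta chains, with log2 differences of -2.46 for Hbb-b1 (SE 0.75, FDR 0.124) and -1.73 for Hbb-b2 (SE 0.70, FDR 0.239). The other 5 had differences between 0.13 (Hba-a1) and 0.67 (Hbb-bh1). Without the first Tnnt2::Cre mutant, Hbb-b1 was at -3.42 (FDR 0.0266) and Hbb-b2 at -2.66 (FDR 0.0433), and both passed, beside 160 of 18256 genes called. This was the only 1 of 14 fits without 1 library in which either passed, and neither passed in the 8 other alternatives. It was found by leaving out each library in turn.

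Genes that red cells need for heme and membrane stood beside the globins. At E11.5, 28 of 29 rose relative to E9.0 controls, beside 19.6% of all genes. The exception was the transferrin receptor Tfrc (0.22, FDR 0.179), and the median log2 difference was 2.57. Among those that rose were Rhd, a blood group protein (5.82), Alad and Fech, enzymes of heme synthesis (3.36 and 2.51), Spnb1, a spectrin of the red cell membrane (2.26), and Gypc, a glycophorin (1.90). Alas2, the red cell enzyme that starts heme synthesis, rose by 3.02 and Slc4a1, the anion exchanger of the membrane, by 3.30. In Mesp1Cre mutants 9 of 28 fell and 1, Tfrc, rose (log2 fold change 0.39, FDR 0.0191), beside 5.29% of all genes lower and 6.17% higher, with a median log2 fold change of -0.98. DESeq2 called 12 of the 28, and limma-trend 5 and 4 at the smaller and the larger pseudocount. Over all 15883 genes the same fits called 2610, 1924 and 1925, with 289 and 287 of the limma-trend calls lower. The edgeR calls named by the smallest p were Ank1 (-1.48), which anchors spectrin, the blood group gene Kel (-1.33), Alad (-1.19), Bpgm (-1.18), which makes 2,3-bisphosphoglycerate, and Spnb1 (-0.94). Slc4a1 had -1.28 (FDR 0.0607) and Alas2 -0.77 (FDR 0.0797), which did not pass.

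In the other lines none of these red cell genes was called by edgeR. In Tnnt2::Cre mutants all 29 had a negative log2 fold change with a median of -0.87, and 1 had an unadjusted p under 0.05, with none called by DESeq2 or limma-trend. In Mef2cAHF::Cre all 28 were positive in labelled mutants with a median of 0.82, and 18 had an unadjusted p under 0.05. DESeq2 called 2 of them, beside 1098 of 16920 genes, and limma-trend none. The median log2 fold changes of the globins, -1.10 and 1.40, had the same signs as these.

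Among 20 regulators of globin genes and erythroid cells, 12 rose and 3 fell between the stages, where 19.6% of all genes were higher and 38.3% called. Bcl11a, a repressor of embryonic and fetal globin genes, rose by 3.26, Gata1 and Tal1, factors of erythroid cells, by 2.75 and 2.73, Klf1, which activates the adult beta chain, by 2.90, and Myb, a factor of definitive blood progenitors, by 2.32. Lin28b and Igf2bp1, which belong to the fetal program of blood cells, fell, with log2 differences of -1.71 and -0.94, and so did Nr2c1, a nuclear receptor (-0.63, named here as the remaining call). Sox6, which acts with Bcl11a, had 0.30 and did not pass.

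Bcl11a was the only regulator of the 20 that edgeR called in Mesp1Cre mutants, beside 6.17% of all genes higher and 5.29% lower. A single call of 20 does not exceed that background. It had 0.359, 0.255, 0.444 and 0.112 FPKM in controls and 1.23, 1.29, 1.503 and 0.896 FPKM in mutants, all 4 above every control, and rose by 1.92 (SE 0.33, FDR 0.00295). Its level was low in both groups, and neurons and other cells also use it. Klf1 (-0.95), Sox6 (0.18) and Myb (-0.01) did not pass. In Tnnt2::Cre none of the 20 was called by edgeR, DESeq2 or limma-trend and 3 had an unadjusted p under 0.05, with Bcl11a at 0.06, Klf1 at -0.76, Sox6 at -0.16 and Myb at 0.23. In Mef2cAHF::Cre edgeR called 1 of the 20, beside 1.81% of all genes higher and 2.85% called in either direction. It was Gata2, a factor of blood progenitors and endothelium, at 0.60 in labelled mutants (FDR 0.0399). DESeq2 called 4 of the 20, beside 1098 of 16920 genes, and limma-trend none, beside 291 and 253 at the smaller and the larger pseudocount. The call of Gata2 was lost in 5 of 6 cases without 1 library. Other values were log2 fold changes of 0.53 for Klf1, -0.56 for Bcl11a, -0.26 for Sox6 and 0.14 for Myb. The interaction between Tnnt2::Cre and Mesp1Cre was called for Bcl11a (log2 difference -1.86, SE 0.42, FDR 0.0450).

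Neighbours of the alpha cluster and the other globins formed a list of 9 genes. Between stages 4 of the 7 tested rose, beside 19.6% of all genes, namely Hbq1b, an alpha-like gene of the cluster (3.20), Mb, the myoglobin of muscle (3.15), and Rhbdf1 and Snrnp25, genes beside the cluster (1.23 and 0.86). None of 6 was called in Mesp1Cre by edgeR, with 2 at an unadjusted p under 0.05, 1 called by DESeq2 and 1 by limma-trend at the smaller pseudocount. None of 7 was called in Tnnt2::Cre by edgeR, with 1 at an unadjusted p under 0.05 and 1 called by DESeq2. Over all genes DESeq2 called 2610 of 15883 in Mesp1Cre and 370 of 17045 in Tnnt2::Cre. The limma-trend fit at the smaller pseudocount called 1924 in Mesp1Cre. In Mef2cAHF::Cre 1 of 7 was called, beside 176 of 16920 genes called lower. This was Mb, lower in labelled mutants by a log2 value of -1.25 (FDR 0.0368), a call lost in 4 of 6 cases without 1 library.

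As a description over the 20 libraries, which share depth, stage and red cell content, the genes most like the mean of the embryonic globins among 12304 genes by Pearson's r of log2 CPM were Slc4a1 (0.990), Hemgn (0.988), Acp5 (0.985), Rhag (0.985) and Mgst3 (0.984). Among those most like the mean of the adult-type globins were Icam4 (0.978), Atpif1 (0.976), Fam117a (0.972) and Rhd (0.972). The 2 means had an r of 0.949 with each other, below all of these.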

How the data were processed

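RNA of 20 samples of embryonic mouse heart was sequenced by the study's authors on Illumina HiSeq instruments, control and mutant libraries of each Cre line together. The labels name NuGEN Ovation kits. Reads were aligned to mm9 with TopHat2 2.0.8b, as the submitters' processing notes give it, and counted per gene by the authors. The study's methods name featureCounts for this step. The deposited table holds, per sample, the raw read count, the authors' FPKM (count over gene length and library total) and variance-corrected log2 values, which were not used. The notes also name USeq 8.6.4, to which the deposited table's own name credits its counts and FPKM. Whether counting used strand is not given in the sources used here.

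Groups came from the sample titles and genotype labels. For each comparison the deposited counts of its groups alone were fitted with edgeR 4.0.16 (filterByExpr, TMM, quasi-likelihood test) in R 4.3.3 across all genes, and p-values were adjusted by Benjamini-Hochberg (FDR, threshold 0.05). The interaction used the Mesp1Cre and Tnnt2::Cre libraries. Ratios were formed from deposited FPKM, compared as log2 values by two-sided exact permutation tests in SciPy 1.17.1 and adjusted over 25 tests. The two-sided p is there the smaller one-sided p, doubled. The p-values measure only the spread between these libraries. The edgeR, DESeq2 and limma fits within each Cre line were tested on simulated counts, and the permutation tests on cases with known answers. The edgeR fits of the interaction, the covariate and the replicate block were not tested in this way. No pair of libraries agreed within sampling noise. Alternatives were DESeq2 1.42.0 (its size factors and Wald test), limma-trend (limma 3.58.1) on log2(FPKM + 0.1) and log2(FPKM + 1), genes with at least 1 count, at least 10 counts in every library, red cell genes left out of the normalization, a red cell covariate (the mean log2 CPM of the heme and red cell genes), a replicate block, and each library left out. The globin genes and gene lists were chosen with earlier results of these data known. Besides the globins, the text names up to 5 genes per list and comparison past the threshold by smallest p, Kmt2d, Klf1, Bcl11a, Sox6, Myb, Alas2 and Slc4a1, and the 5 most similar by correlation with each globin set among genes whose log2 CPM averaged 1 or more. Ahsp was not analysed here, and 1 gene that this rule names is not reported here. Of 30 listed heme and red cell genes 29 were matched.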

Additional observations from a re-analysis of the deposited data

Results flagged for a closer look

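The genotype effect on Bcl11a, a repressor of embryonic and fetal globin genes, differed between Tnnt2::Cre and Mesp1Cre by a log2 value of -1.86 in a test of the interaction (edgeR's quasi-likelihood test, FDR 0.0450). In Mesp1Cre hearts its FPKM was 0.112 to 0.444 in controls and 0.896 to 1.503 in mutants, and in Tnnt2::Cre hearts 2.55 to 3.01 and 2.23 to 4.37. Without any 1 library the difference lay between -2.10 and -1.60, and in 9 of 14 cases it did not pass the threshold, nor did it under either limma-trend fit.

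The ratio of Hbb-y to Hbb-bh1 was 1.68-fold higher in the Mef2cAHF::Cre libraries labelled mutant, every one of them above every labelled control, and 0.711 of the control value in Tnnt2::Cre mutants, every one of them below every control. The difference between the lines was not tested. Under the column names, which contradict the titles for Mef2cAHF::Cre, both lines would have the lower ratio in mutants.

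A search for a library far from the others of its group, in 24 sets of 4 Mesp1Cre libraries (globin levels and ratios), found none, where chance alone gives about 1 in 20.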

How the results depend on the processing

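Of 4 globins called in Mesp1Cre, 2 remained called under limma-trend at either pseudocount and 2 under the replicate block, beside 1924, 1925 and 1384 of 15883 genes. None remained with the red cell covariate (184 genes called), under which Hbb-b1 was the 1 globin called. Hbb-b1 was also called higher with genes of at least 1 count and with at least 10 counts in every library. In Mef2cAHF::Cre the count of 2 became 6 with all genes of at least 1 count and 0 under both limma-trend fits, the replicate block and the covariate. Over all genes the first of these fits called 1311 of 29613. The others called 291, 253, 517 and 328 of 16920, beside 482 in the main fit. The cause of these changes was not tested. Leaving out 1 library gave 1 to 5 calls in Mesp1Cre, 0 to 2 in Mef2cAHF::Cre, 0 to 7 in Tnnt2::Cre and 0 to 2 for the interaction. The embryonic to adult log2 difference then ranged from -0.83 to -0.72 in Mesp1Cre, -0.71 to -0.32 in Mef2cAHF::Cre, -0.18 to -0.01 in Tnnt2::Cre and -1.19 to -1.04 between stages. Without the Mesp1Cre controls the all-library difference was -0.26 (exact permutation p = 0.171). As a difference of mean log2 FPKM the Tnnt2::Cre ratio turned to 0.062.

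Same-numbered libraries of Mesp1Cre share a code in their names whose meaning the labels do not give. For same-numbered libraries the correlations of deviations from the group means were 0.04, -0.03, -0.01 and 0.09 in Mesp1Cre, 0.18, -0.01 and 0.06 in Mef2cAHF::Cre and 0.03, -0.04 and 0.06 in Tnnt2::Cre. Differently numbered libraries ran from -0.07 to 0.06, -0.24 to 0.16 and -0.08 to 0.03. In each line the highest value belonged to a same-numbered pair. These correlations do not settle whether such libraries share more than a number, and the main fits left the number out. With the replicate block the Mesp1Cre ratio had a paired exact permutation p of 0.125, the smallest 4 pairs allow, and a log2 difference of -0.78, which pairing cannot change.

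Signs that turned belonged to values short of the threshold there, apart from the alpha-like to beta-like ratio in Mesp1Cre (exact permutation p = 0.0286, unadjusted). With the covariate, Mesp1Cre gave Hba-a2 0.24, Hba-x 0.055, Hbb-bh1 0.11, Alas2 0.19, Slc4a1 0.13, Klf1 0.51 and Sox6 -0.16. Mef2cAHF::Cre gave Hba-x -0.12, Hbb-bh1 -0.68, Alas2 -0.012 and Klf1 -0.45, and Tnnt2::Cre gave Hbb-b2 0.15, Hbb-bh1 0.24, Klf1 0.20, Myb -0.13 and Bcl11a -0.26. Myb in Mesp1Cre was 0.0012 with at least 10 counts, 0.13 and 0.031 by limma-trend and 0.026 with the block. For the interaction, Hba-a1 was -0.28 and -0.30 by limma-trend and -0.19 with the block, Hba-a2 -0.090, -0.11 and -0.0075, and Hba-x -0.0094 and -0.0097 by limma-trend. As differences of mean log2 FPKM the beta-like ratio in Tnnt2::Cre was 0.0028, and the alpha-like to beta-like ratio -1.06 in Mesp1Cre, -0.18 in Tnnt2::Cre and -0.24 over all libraries, and -0.00249 over all libraries without the Mef2cAHF::Cre labelled controls. Without 1 library, log2 values crossed 0 for Myb (Mesp1Cre -0.16 to 0.19, Mef2cAHF::Cre -0.13 to 0.52), Hbb-bh1 in Mef2cAHF::Cre (-0.051 to 1.06), Bcl11a in Tnnt2::Cre (-0.19 to 0.20), the Tnnt2::Cre alpha-like ratio (-0.012 to 0.21) and alpha-like to beta-like ratio (-0.020 to 0.024), and the interaction of Hbb-y (-0.42 to 1.10), Hba-a1 (-0.92 to 0.60), Hba-a2 (-0.78 to 0.65), Hba-x (-0.65 to 0.82) and Hbb-bh1 (-0.27 to 1.10).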

Other observations

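Hbb-bh0, a further gene of the beta cluster that carries an Hbb- symbol only in the alternate-name column and so was no member of the set, had 143, 4.84, 6.06 and 20.9 FPKM in Mesp1Cre controls and 2.13, 105, 3.57 and 25.8 FPKM in Mesp1Cre mutants. In Mef2cAHF::Cre it had 14.1, 9.30 and 22.4 FPKM in labelled controls and 27.7, 37.5 and 20.9 FPKM in labelled mutants, and in Tnnt2::Cre 94.4, 172 and 90.6 FPKM in controls and 107, 21.3 and 40.9 FPKM in mutants. The first Mesp1Cre control and the second mutant were thus far above the other Mesp1Cre libraries. The second mutant also had the highest level of each of the 7 globin genes among the mutants.

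The summed alpha-like FPKM was 0.551 to 0.709 of the summed beta-like FPKM in E9.0 libraries and 0.481 to 0.511 in Tnnt2::Cre libraries, but 0.850 to 0.967 in right ventricle and outflow tract of Mef2cAHF::Cre. These tissues were sequenced in separate groups, and the difference was not tested.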
